A study of Mus musculus with 12 samples.

Results

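The beta-thymosin genes Tmsb15b2, Tmsb4x and Tmsb10 were followed in the ventral hippocampus of wild-type (WT) mice and of mice labelled as Angelman syndrome (AS). They are 3 of the 13951 genes in the deposited table, and all 3 passed the filter on low values. Tmsb4x and Tmsb10 were taken as the other listed members of the family, while Tmsb15b2 was chosen by its higher values in the AS libraries than in the WT libraries of this table. Its genotype differences are therefore described and not tested. Polyadenylated RNA was sequenced from the ventral portion of the right hippocampus, with 1 library per mouse and 3 mice each of WT females, AS females, WT males and AS males. All mice carry the strain label C57BL/6J and were 12 to 16 weeks old, and AS and WT mice differ in the labels only by the disease state. The labels do not name the mutation, and they do not state whether animals were littermates. In people the syndrome arises when neurons lack the ubiquitin ligase UBE3A made from the mother's allele.

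Beta-thymosins are small, unstructured proteins that bind actin monomers and keep them from joining filaments. In most cells they hold a reserve of monomeric actin, which profilin and filament nucleators draw on when a growth cone, a dendritic spine or a moving microglial process changes shape. Tmsb4x encodes thymosin beta-4, the main monomer-sequestering protein of many mammalian cells, and Tmsb10 encodes a close relative that is abundant in developing neurons. The Tmsb15 genes encode a further branch of the family, known in rat and human for its expression in developing brain and in tumours.

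The libraries correlated across genes with Pearson's r of 0.966 to 0.983. All 8 neuronal markers listed for the tissue were measured, with group means of 6.83 to 6.96 on the log2 scale. Ube3a differed by -0.09 ± 0.09 over both sexes (SE, 6 mice per genotype, adjusted p = 0.976, limma), so its total transcript did not separate the genotypes. WT female replicate 1 had Xist at 0.35 on the log2 scale, within the 0.17 to 0.52 of the male libraries and apart from the 6.00 to 6.45 of the other females. Its 4 Y-linked transcripts summed to an abundance of 2.54, within the 0.719 to 4.06 of the females and below the 80.5 to 101 of the males, and sex comparisons are given with and without it. Choroid plexus markers averaged 3.40 to 5.68 in 4 libraries (WT female replicates 1 and 2, AS female replicate 2 and AS male replicate 2) and 1.41 to 2.05 in the rest. Values below are log2(abundance + 1), from a table of normalized RSEM abundances read as natural logs. If the table used base 2, every log2 difference would be 0.693 times as large. Abundances and their sums, shares and ratios would change too, with smaller steps between genes. RSEM gives abundances per transcript length, but the unit and normalization of the deposited values are not stated. Levels set side by side between genes assume that scaling, and the depth of the libraries is unknown.

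The sequences come first because they set how far the Tmsb15 values can be told apart. Tmsb15b2 (ENSMUSG00000089996) lies on the minus strand of chromosome X at 136955265 to 136975497 on GRCm38, the build named for the deposited data. Tmsb15l (136954988 to 136976869) and Tmsb15b1 (136974022 to 136976874) overlap it on the same strand. Tmsb15b1 and Tmsb15b2 are copies of the same 3-exon unit, and Tmsb15l joins exons of both copies into a longer reading frame. The coding sequences of GENCODE M21 are shown without the stop codon, and capitals mark the 4 of 135 bases at which the copies differ.
Tmsb15b2: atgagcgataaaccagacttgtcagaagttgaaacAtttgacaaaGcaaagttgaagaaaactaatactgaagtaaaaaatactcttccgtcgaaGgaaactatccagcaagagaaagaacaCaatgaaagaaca
Tmsb15b1: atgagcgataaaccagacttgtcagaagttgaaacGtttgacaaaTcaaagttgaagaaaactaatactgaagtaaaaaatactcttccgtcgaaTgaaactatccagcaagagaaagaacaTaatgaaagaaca

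Counted from the A of the start codon, the changes from Tmsb15b1 to Tmsb15b2 are G36A, T46G, T96G and T123C. Tmsb15l holds the thymosin frame a second time in tandem, and its coding sequence of 240 bases contains that of Tmsb15b2 whole, 135 of 135 bases. In the line for Tmsb15l, the capitals are the bases from exons of the main Tmsb15b2 transcript. The second Tmsb15b2 transcript also has the exon at the other copy that gives the lower-case bases.
Tmsb15l: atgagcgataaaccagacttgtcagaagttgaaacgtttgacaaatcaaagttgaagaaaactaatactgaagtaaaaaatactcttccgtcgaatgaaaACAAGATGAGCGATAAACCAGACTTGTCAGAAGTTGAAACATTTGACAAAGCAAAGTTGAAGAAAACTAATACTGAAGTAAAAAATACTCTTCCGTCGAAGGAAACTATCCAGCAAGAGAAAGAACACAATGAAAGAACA

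The other 2 members are further apart in sequence. Tmsb4x (ENSMUSG00000049775, chromosome X, 167207093 to 167209315, minus strand) and Tmsb10 (ENSMUSG00000079523, chromosome 6, 72957347 to 72958748, minus strand) have coding sequences of 132 bases that are identical at 92 of them (69.7%). Capitals mark the 40 bases at which this pair differs. Tmsb15b2 is identical to Tmsb4x at 65.2% of 132 aligned bases and to Tmsb10 at 62.9%.
Tmsb4x: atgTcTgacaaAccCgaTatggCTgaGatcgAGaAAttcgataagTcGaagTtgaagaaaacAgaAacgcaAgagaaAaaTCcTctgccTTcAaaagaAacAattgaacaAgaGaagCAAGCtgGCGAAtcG
Tmsb10: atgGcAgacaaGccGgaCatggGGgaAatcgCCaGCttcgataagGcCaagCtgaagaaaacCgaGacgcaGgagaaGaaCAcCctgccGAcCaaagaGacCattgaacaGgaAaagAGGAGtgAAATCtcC

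**Figure D1:**
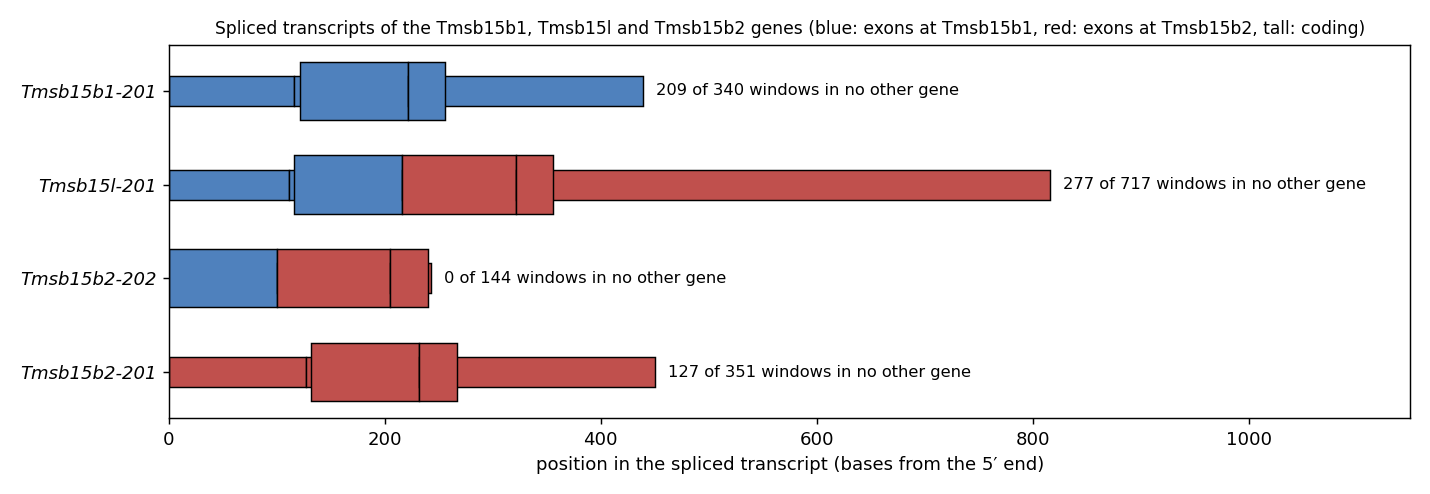
Spliced transcripts of the overlapping Tmsb15 genes, drawn to scale in bases from the 5′ end. Blue boxes are exons at the Tmsb15b1 copy, red boxes are exons at the Tmsb15b2 copy, tall boxes are coding, and the text at the right gives the 100-base windows found in no other gene's transcripts. Tmsb15b2-202 has 0 such windows of 144.

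Sequence windows as long as a read of the 2 × 100 base run were compared with every GENCODE M21 transcript on both strands. Of the 351 windows in the main Tmsb15b2 transcript, 127 (36.2%) occurred in no other gene, and all 224 shared windows occurred in Tmsb15l. Only 14 of the 351 also occurred in Tmsb15b1. The windows stand for single reads and not for read pairs. The second Tmsb15b2 transcript had 0 of 144 windows of its own, and all 144 were in Tmsb15l. Tmsb15b1 had 209 of 340 windows of its own (61.5%) and Tmsb15l had 277 of 717 (38.6%). The windows that tell Tmsb15b2 from Tmsb15l reach into its first exon, and the Tmsb15 values depend on how RSEM split reads among the 3 genes. For Tmsb4x, all 669 windows of the main transcript were in no other gene. For the main Tmsb10 transcript 340 of 471 were (72.2%), and the others also occurred in the predicted genes Gm3788 or Gm9844.

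The copies also carry near-identical sequence upstream. RefSeq promoter windows of 300 bases around each gene's start, on GRCm38.p6, are shown for both because each copy has its own start site. The windows aligned over 265 bases with 257 identical (97.0%), and capitals mark the 8 that differ. The RefSeq window of Tmsb15l is the same as that of Tmsb15b1. The windows are chrX:136957930-136958229 for Tmsb15b2 and chrX:136976825-136977124 for Tmsb15b1, both on the minus strand.
Tmsb15b2 promoter: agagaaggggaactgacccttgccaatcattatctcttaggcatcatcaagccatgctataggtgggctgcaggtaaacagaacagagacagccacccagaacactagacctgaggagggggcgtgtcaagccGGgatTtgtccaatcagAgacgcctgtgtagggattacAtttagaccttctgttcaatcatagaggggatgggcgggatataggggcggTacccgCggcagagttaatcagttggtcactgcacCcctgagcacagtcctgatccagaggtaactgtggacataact
Tmsb15b1 promoter: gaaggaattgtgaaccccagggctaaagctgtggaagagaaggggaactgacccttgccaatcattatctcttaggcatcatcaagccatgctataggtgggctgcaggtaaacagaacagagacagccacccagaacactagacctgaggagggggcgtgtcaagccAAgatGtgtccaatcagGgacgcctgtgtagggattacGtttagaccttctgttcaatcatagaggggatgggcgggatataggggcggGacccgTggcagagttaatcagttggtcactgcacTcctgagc

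Both windows hold the CCAAT box (CCAAT) at 2 positions and the GC box (GGGCGG) at 2 positions, counting both strands. The box TATAAA was found in neither. Over all 32851 mouse promoter windows, 37.4% hold CCAAT, 35.7% hold GGGCGG and 13.6% hold TATAAA. The Tmsb4x window has GGGCGG and no CCAAT, as do all 3 Tmsb10 windows.

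In level, the members spanned a wide range with the same order in every group. Tmsb4x averaged 10.53 over the 12 libraries, from 10.34 to 10.68, and ranked 21 of the 13858 genes tested. Its mean abundance, under the natural log reading, was 1482, against 148 for Tmsb10 and 14.5 for Tmsb15b2. Tmsb10 averaged 7.19, from 6.74 to 7.67, and ranked 552. Tmsb15b2 averaged 3.92, from 3.47 to 4.45, near the middle of all genes at rank 6429. The ranges of these 3 genes did not overlap in any library. Below them, Tmsb15b1 averaged 2.85 and Tmsb15l 2.72, and these neighbours in the order overlapped in every group. Of the beta-thymosin genes in the annotation, Tmsb15a is absent from the deposited table and has no level here.

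**Figure D2:**
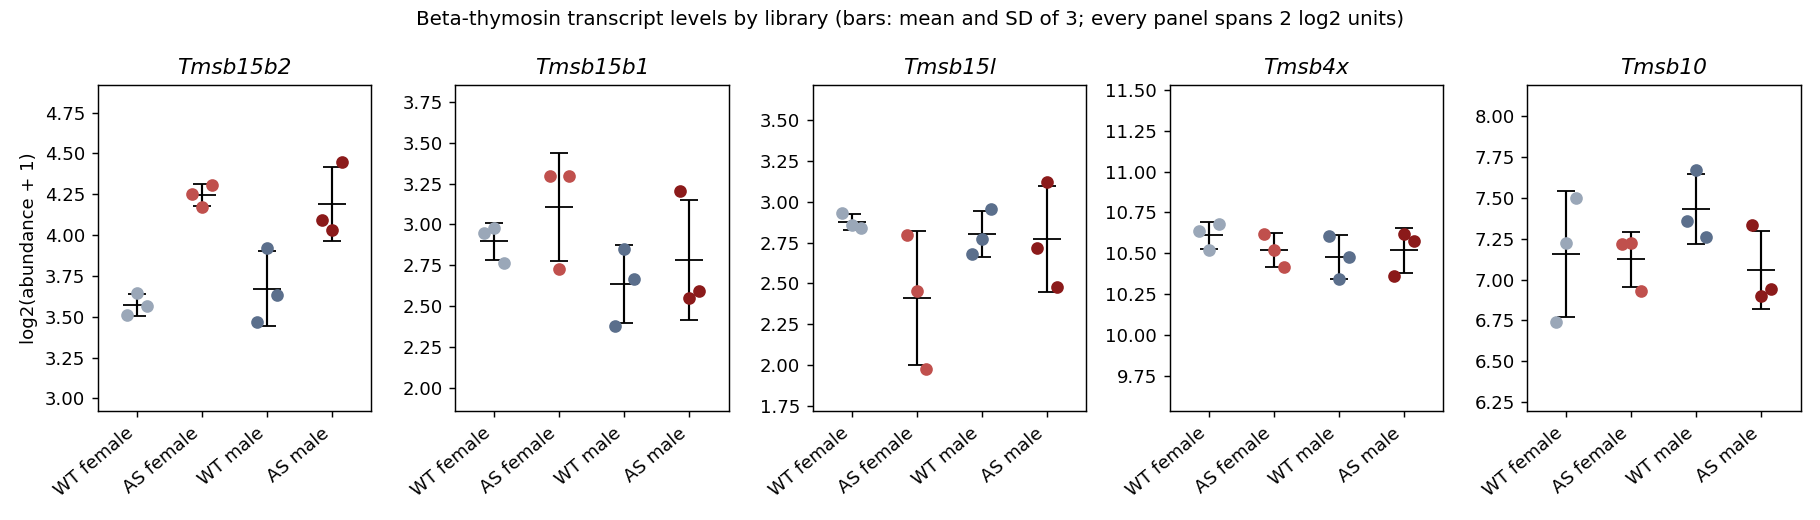
Levels of 5 beta-thymosin transcripts in each of the 12 libraries as log2(abundance + 1), with points for libraries and bars for the mean and SD of 3. All 6 AS libraries lie above all 6 WT libraries for Tmsb15b2, from 4.03 to 4.45 against 3.47 to 3.92, while the genotypes overlap over the 12 libraries for the other 4 genes.

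Tmsb15b2 was higher in every AS library than in every WT library, which is what it was picked for. In WT females it was at 3.51, 3.64 and 3.56, and in AS females at 4.25, 4.17 and 4.31. In WT males it was at 3.47, 3.92 and 3.63, and in AS males at 4.09, 4.03 and 4.45. The groups did not overlap in either sex, and the female groups lay further apart. The gap between the highest WT and the lowest AS library was 0.53 in females and 0.11 in males, where WT male replicate 2 came closest. In bulk tissue, a change in the number of cells that make a transcript and in the RNA each cell holds cannot be told apart.

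The fitted difference of Tmsb15b2 was 0.67 ± 0.13 in females, 0.52 ± 0.13 in males and 0.59 ± 0.09 over both sexes (SE, log2 scale). In abundance this was 10.9 ± 0.56 in WT females against 18.0 ± 0.89 in AS females, while males had 11.9 ± 2.08 as WT against 17.4 ± 2.98 as AS (SD, n = 3). AS libraries lay above all WT libraries for 4.99% of the genes tested in females, for 6.02% in males and for 0.231% over all 12 libraries. Nothing is read from these shares for Tmsb15b2, since its choice rests on the same values. The interaction, male minus female difference, was -0.15 ± 0.18. Without the 4 libraries highest in choroid plexus markers the difference over both sexes was 0.66, a value whose direction the choice of the gene fixes.

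The overlapping relatives that share sequence with Tmsb15b2, Tmsb15b1 in far fewer windows than Tmsb15l, did not pass a genotype test. Tmsb15b1 was at 2.95, 2.98 and 2.77 in WT females and 3.29, 2.73 and 3.30 in AS females. In males it was at 2.38, 2.85 and 2.67 in WT and 3.20, 2.55 and 2.59 in AS. Its groups overlapped in both sexes, with differences of 0.21 ± 0.20 in females and 0.15 ± 0.20 in males (adjusted p = 1.00 and 0.928, limma). For all genotype comparisons of single genes, 0% of genes passed an adjusted p of 0.05 in females, in males or over both sexes (0 of 13858 each, limma). At an unadjusted p under 0.05 there were 438 genes (3.16%) in females, 890 (6.42%) in males and 741 (5.35%) over both sexes.

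Tmsb15l was the lower one of the relatives in AS females. It was at 2.93, 2.86 and 2.84 in WT females and at 2.80, 2.45 and 1.98 in AS females, so these groups did not overlap, which was so on the lower side for 4.02% of genes. The difference was -0.46 ± 0.20 and did not pass (adjusted p = 1.00, limma). In males it was at 2.68, 2.78 and 2.96 in WT and at 2.72, 3.12 and 2.48 in AS, with overlap and a difference of -0.03 ± 0.20 (adjusted p = 0.986, limma). Over both sexes Tmsb15l differed by -0.25 ± 0.14 and Tmsb15b1 by 0.18 ± 0.14 (adjusted p = 0.916 and 0.944, limma). Since all 3 genes share sequence, none of these values is independent of that of Tmsb15b2.

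The abundance assigned to the 3 Tmsb15 genes together was also higher in the AS libraries. The sum ran from 19.7 to 26.2 with a median of 23.6 in the 6 WT libraries and from 27.1 to 32.8 with a median of 30.1 in the 6 AS libraries, without overlap. Without Tmsb15b2, the sum of Tmsb15b1 and Tmsb15l was 12.0 ± 1.32 in WT and 12.1 ± 2.03 in AS (SD, n = 6), from 9.62 to 13.3 against 9.60 to 14.8. The share of Tmsb15b2 in the sum was 43.8% to 54.0% in WT and 53.8% to 68.4% in AS. Only AS male replicate 1, at 53.8%, lay within the WT range. The sum holds the picked gene and is therefore a description too. The part of read assignment in the difference was not tested.

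**Figure D3:**
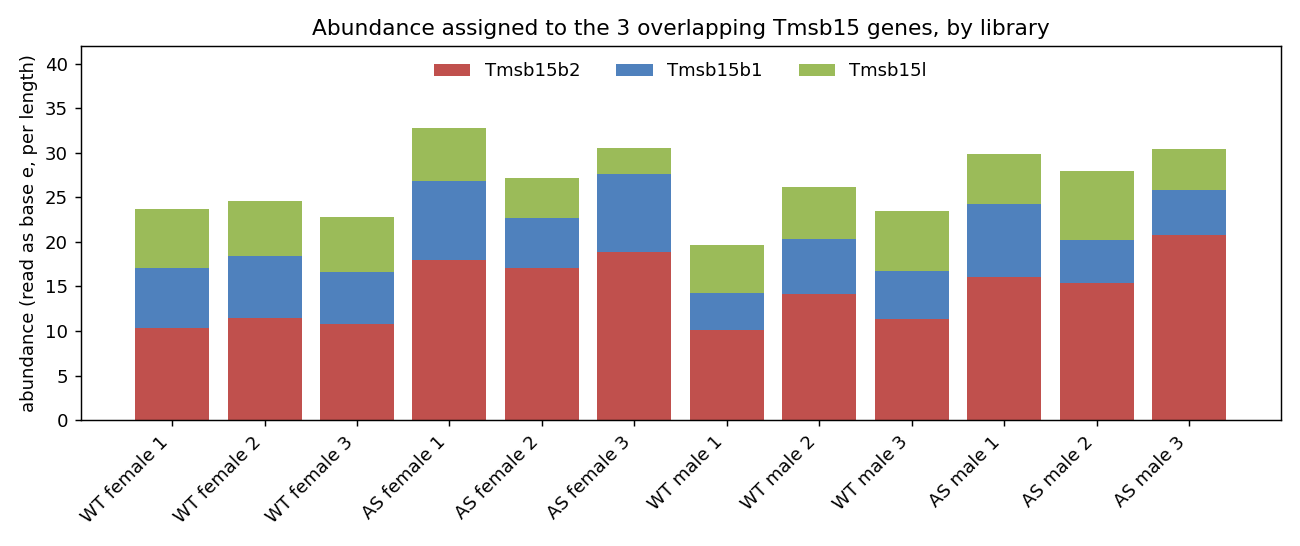
Abundance assigned to Tmsb15b2, Tmsb15b1 and Tmsb15l in each library, stacked, with the vertical axis starting at 0. The whole bars reach 19.7 to 26.2 in WT and 27.1 to 32.8 in AS libraries, and the part that is not Tmsb15b2 spans 9.60 to 14.8 over all 12.

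Tmsb4x, the most abundant member, did not pass in any genotype comparison. It was at 10.63, 10.52 and 10.68 in WT females and at 10.62, 10.52 and 10.41 in AS females. In males it was at 10.61, 10.34 and 10.48 in WT and at 10.36, 10.62 and 10.57 in AS. The groups overlapped in both sexes. The difference was -0.09 ± 0.09 in females and 0.04 ± 0.09 in males, and for the sexes together -0.02 ± 0.07 (adjusted p = 1.00, 0.955 and 0.984, limma). The 95% interval over both sexes was -0.17 to 0.12. The interaction of genotype and sex was 0.13 ± 0.13 (adjusted p = 0.987, limma).

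Tmsb10 was lower in AS males than in WT males by less than the test required. It was at 7.36, 7.67 and 7.26 in WT males and at 7.33, 6.90 and 6.94 in AS males, and AS male replicate 1 lay within the WT range. AS males lay wholly below WT males for 5.18% of all genes, and Tmsb10 is not among them. The difference was -0.37 ± 0.18 with a 95% interval of -0.77 to 0.03 (adjusted p = 0.772, limma). In females it was at 6.74, 7.22 and 7.50 in WT and at 7.22, 7.22 and 6.93 in AS, with a difference of -0.03 ± 0.18 (adjusted p = 1.00, limma). WT female replicate 1, the library with the low Xist value, was the lowest of all 12 for Tmsb10, and without it the female difference was -0.24. Over both sexes the difference was -0.20 ± 0.13 and the interaction -0.34 ± 0.26 (adjusted p = 0.936 and 0.987, limma). Leaving out 1 library moved these to between -0.31 (without WT female replicate 1) and -0.11 (without WT female replicate 3), and to between -0.13 and -0.51 without the same libraries. Without the 4 libraries highest in choroid plexus markers, the difference was -0.43 in females and -0.36 over both sexes. That run leaves 1 WT female, replicate 3, which at 7.50 was the highest female library for Tmsb10. The part of choroid plexus in this change was not tested. For the interaction 0 of 13858 genes passed, and 522 (3.77%) had an unadjusted p under 0.05.

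**Figure D4:**
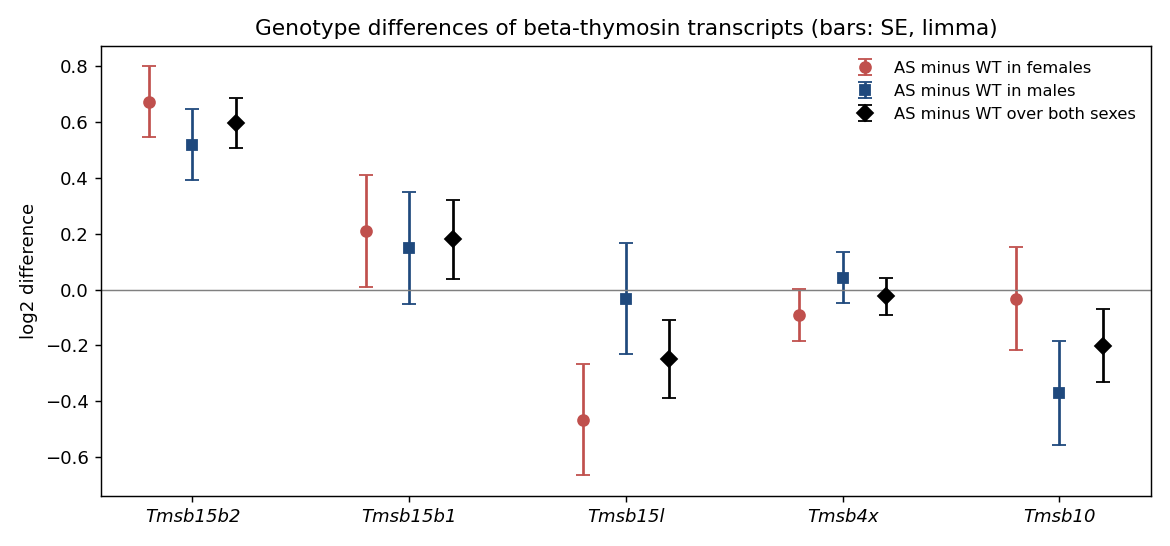
Fitted log2 differences, AS minus WT, of 5 beta-thymosin transcripts in females, in males and over both sexes, with bars for the standard error. Tmsb15b2 lies at 0.52 to 0.67 and was picked for this difference, while the other 4 genes lie between -0.46 and 0.21 and did not pass.

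Between the sexes, none of the 3 members passed. Tmsb15b2 was not picked by sex, but its choice used the same 12 libraries. A gene picked for lying apart by genotype in both sexes can tend to differ little by sex. Its sex differences are therefore not independent of the choice. Only 5 genes (0.0361%) passed for male minus female over both genotypes, 4 (0.0289%) in WT and 5 (0.0361%) in AS (limma). At an unadjusted p under 0.05 the shares were 6.91% over both genotypes, 7.7% in WT and 3.63% in AS. Tmsb15b2 differed by 0.02 ± 0.09 over both genotypes (adjusted p = 0.982, limma), with a 95% interval of -0.17 to 0.22. Tmsb4x, which like Tmsb15b2 is on the X chromosome, differed by -0.07 ± 0.07 (adjusted p = 0.877, limma). Tmsb10 differed by 0.11 ± 0.13 (adjusted p = 0.913, limma).

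The library with the low Xist value entered these comparisons among the females. Without it, the male minus female difference was 0.0084 for Tmsb15b2, -0.06 for Tmsb4x and 0.0016 for Tmsb10, and 8 genes passed over both genotypes, in WT and in AS alike, in place of 5, 4 and 5. In WT mice alone the Tmsb10 difference was 0.27 ± 0.18 with it and 0.07 ± 0.16 without it (adjusted p = 0.747 and 0.966, limma).

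Across the 12 libraries the members had low negative correlations, not all of which stayed negative within groups. Pearson's r is a description here, over points that share the 4 groups. It was -0.30 between Tmsb15b2 and Tmsb4x, -0.25 between Tmsb15b2 and Tmsb10 and -0.33 between Tmsb4x and Tmsb10. After the group means were removed, these were -0.39, 0.17 and -0.29. Before that step, the r values of Tmsb15b2 hold the genotype difference it was picked for. Between Tmsb15b2 and Tmsb15l, which share sequence, r was -0.56, and -0.40 after the group means were removed. The ratio of Tmsb4x to Tmsb10 abundance ran from 6.40 in WT male replicate 2 to 15.005 in WT female replicate 1, and from 8.20 to 13.3 in AS libraries.

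The 5 genes most like each member over the 12 libraries were looked up among all genes tested. For Tmsb15b2 they were Coa5, a factor of cytochrome oxidase assembly (r = 0.92), the DNA repair gene Xrcc6 (0.90), the intronic RNA Gm13558 (0.88), the transcriptional coregulator Cited1 (0.88) and the endophilin gene Sh3gl2 (0.86). These r values hold the genotype difference that Tmsb15b2 was picked for, and after the group means were removed they were 0.59, 0.65, 0.51, 0.62 and 0.83. For Tmsb4x they were Impa1, an inositol phosphatase gene (0.92), Btg3, an antiproliferative factor (0.92), Sdcbp, which encodes the scaffold syntenin (0.91), the pseudogene Gm14421 (0.90) and 4930522L14Rik (0.88). For Tmsb10 they were Efhd2, a calcium-binding actin regulator (0.95), the microtubule affinity kinase gene Mark1 (0.92), the nicotinic receptor subunit Chrna4 (0.91), the calmodulin kinase gene Camk1 (0.90) and the neurexophilin gene Nxph3 (0.90). With 13858 genes and 12 libraries, high values arise for any gene, and they are given as an order only.

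None of the reported genes around Tmsb15b2 on chromosome X passed, and none of the 13858 genes tested did. Their differences were smaller than that of Tmsb15b2, but it was picked for its difference, so nothing is read from this contrast. Whether the difference is particular to Tmsb15b2 was not tested. Distances were taken from the annotated gene start at 136975497, which is that of the second transcript. The main transcript, with the promoter window shown above, starts at 136958025. Within 500 kb of the annotated start, the 10 tested genes reported here had differences over both sexes of -0.25 to 0.18. Of them 6 were higher and 4 lower, and 0 had an unadjusted p under 0.05. Over all genes 52.7% were higher and 5.35% had such a p. In females 2 of the 10 were higher and 8 lower, and in males 9 were higher and 1, Tmsb15l, was lower, where 51.6% and 52.4% of all genes were higher. Both ends of that range are Tmsb15l and Tmsb15b1. Among the others, Rab9b, an endosomal GTPase gene, was at 0.09 ± 0.08 and Zcchc18, the one whose start lies nearest, at 0.04 ± 0.05 (adjusted p = 0.953 and 0.976, limma). Near Tmsb4x, 2 tested genes were Prps2, a nucleotide synthesis enzyme, at 0.07 ± 0.10 and the Toll-like receptor gene Tlr7 at -0.34 ± 0.23 (adjusted p = 0.976 and 0.940, limma). Near Tmsb10, 6 genes lay between -0.10 and 0.05, with Kcmf1, the nearest, at 0.05 ± 0.05 (adjusted p = 0.967, limma).

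**Figure D5:**
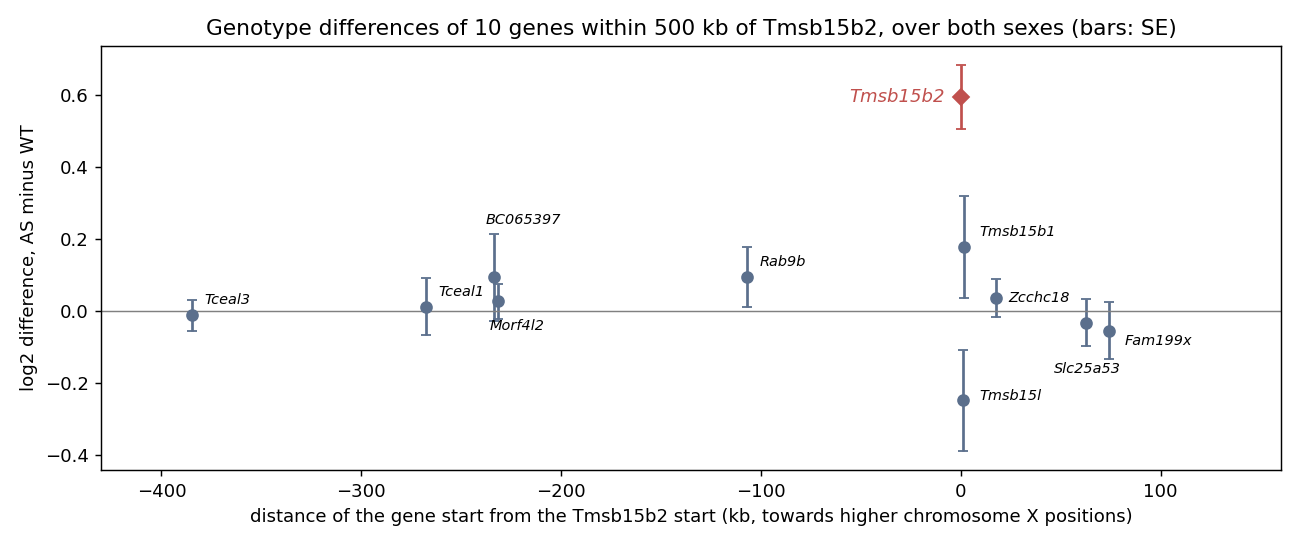
Fitted log2 differences, AS minus WT over both sexes, of Tmsb15b2 (red diamond, picked for this difference) and of 10 tested genes within 500 kb of its annotated start, against distance in kb, with bars for the standard error. The annotated start is that of the second transcript, at 136975497. The neighbours lie between -0.25 and 0.18, against 0.59 for Tmsb15b2.

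The genes that handle actin monomers and filaments, on which beta-thymosins act, showed no call in either direction. None of the 13858 genes tested was called for genotype, so this count says nothing particular about actin genes. Of 59 tested genes in 6 lists, 0 passed over both sexes, 28 were higher and 31 lower, and 1 (1.69%) had an unadjusted p under 0.05, against 5.35% of all genes. Their median difference was -0.01, with 0.0053 over all genes. The actin genes themselves were at 0.02 ± 0.06 for Actb and 0.03 ± 0.06 for Actg1 (adjusted p = 0.984 and 0.978, limma).

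By role, 12 monomer-binding and severing genes had a median of -0.0055, with 6 higher and 6 lower. The one with the smallest p was Twf2, which encodes the monomer-binding protein twinfilin-2, at -0.17 ± 0.06 (adjusted p = 0.893, limma). Cfl1, the gene of the severing protein cofilin, was at 0.05 ± 0.05 and Cotl1, a coactosin gene, at 0.06 ± 0.07. Of 18 listed genes of WH2-domain and Ena/VASP proteins, which carry monomers to growing filaments, 17 were in the table. Of these 17, 6 were higher and 11 lower with a median of -0.03. Wasf1, a WAVE complex gene, was at 0.12 ± 0.07, Cobll1 at -0.16 ± 0.11 and Wasf2 at -0.10 ± 0.08.

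Nucleators were similar in size of difference. The 10 genes of the Arp2/3 complex, which starts filament branches, had a median of 0.0034 with 6 higher and 4 lower, and Actr3b was at 0.08 ± 0.06, Arpc1b at -0.10 ± 0.08 and Arpc5l at 0.04 ± 0.04. The 11 formin genes in the table, of 12 listed, had a median of 0.03 with 7 higher and 4 lower. Diaph1 was at 0.09 ± 0.05, Fmnl3 at 0.16 ± 0.11 and Diaph2 at 0.06 ± 0.08. Of 10 listed genes of the serum response factor pathway, which reads the pool of free actin monomers, 7 were in the table. Of these 7, 1 was higher and 6 were lower with a median of -0.08. Tpm1, a tropomyosin gene, was at -0.08 ± 0.04, the vinculin gene Vcl at -0.07 ± 0.06 and Fhl2 at 0.11 ± 0.12. None of these passed, with adjusted p from 0.893 to 0.984 (limma). Acta2 of the serum response factor list is also 1 of 5 markers listed for mural cells. Of those 5 markers, 1 was higher and 4 were lower over both sexes, with a median of -0.03. The part of mural cells in the list was not tested.

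Marker levels of other cell types are set beside the members. No marker was called for AS minus WT, and none of the 13858 genes tested was. Microglia are rich in Tmsb4x, and their 12 markers, all measured and none at 0, summed to an abundance of 331 to 359 in WT females, 334 to 414 in AS females, 325 to 355 in WT males and 322 to 354 in AS males. Of these markers 9 were higher and 3 lower over both sexes, with a median of 0.03 and 0 called. Of 9 markers of immature neurons, in which Tmsb10 is abundant, 5 were measured, while Sox11, Igfbpl1, Draxin and Eomes were absent. The 5 summed to 392 to 529 in WT females and 495 to 563 in AS females. In males the sums were 525 to 725 in WT and 511 to 624 in AS. Stmn1 averaged 8.52 and Tubb3 7.22 on the log2 scale, against 2.63 for Dcx, so Stmn1 and Tubb3 make up most of these sums. Whether the 5 measured markers track immature neurons in this tissue was not tested. The mean of the 5 was 4.68 ± 0.07 in WT females and 4.79 ± 0.02 in AS females, with 5 higher and 0 lower. It was 4.85 ± 0.10 in WT males and 4.83 ± 0.01 in AS males, with 2 higher and 3 lower (SD, n = 3). These stand beside the Tmsb10 values above. Oligodendrocyte markers were higher in 7 of 7 cases over both sexes, by a median of 0.13 with 0 called (summed abundance 1560 to 2104 in WT females, 1525 to 2496 in AS females, 1326 to 2447 in WT males and 1568 to 1840 in AS males, none at 0). Their part in the Tmsb15b2 difference was not tested. Choroid plexus markers were lower in AS for 12 of 12 in females, by a median of -1.01, and higher for 12 of 12 in males, by a median of 0.44, with 0 called in either. Of 6 meningeal fibroblast markers, 5 were lower in females and 3 in males, with medians of -0.21 and -0.02 and 0 called, and all 6 were lower over both sexes. Across the 12 libraries the mean of the meningeal markers had r of 0.63 with Tmsb4x and -0.49 with Tmsb15b2. Other lists had values of like size. Tmsb4x had r of -0.64 with the hippocampal neuron list, -0.57 with the immature neuron list and 0.046 with the microglia list. Tmsb15b2 had 0.515 with the oligodendrocyte list, and Tmsb10 had 0.53 with the immature neuron list. Group means were not removed for these r values, and those of Tmsb15b2 hold the genotype difference it was picked for. The part of any of these lists in the members' values was not tested.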

How the data were processed

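Polyadenylated RNA of 12 mouse ventral hippocampi was sequenced in 1 lane, with 3 libraries in each of 4 groups. Per the submitters' processing notes, Trimmomatic, Bowtie2 and RSEM were used with GRCm38 (mm10). Versions, annotation, normalization and filter are not given in the sources used here. The authors deposited 1 table of log values, which holds values of 0.100 to 10.08, taken here as ln(RSEM abundance + 1), a natural log. Back-transformed library totals are 547558 to 587587, or 121858 to 124206 if read as base 2, and the 12 highest rows are mitochondrial genes. The order of rows is the same under either base, and the unit that the totals should match is not stated, so neither decides the base. Base e was used as an assumption, and base 2 is an alternative. Without counts, depth and counting error are unknown.

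Symbols and positions came from GENCODE M21 (GRCm38), with symbols for 13735 identifiers and none for 216. Values were divided by the natural log of 2, and 13858 genes reached a mean abundance of 1 while 93 did not and were dropped. Then limma 3.58.1 in R 4.3.3 was fitted with 4 group means to all 12 libraries, with variances that follow a trend with expression and 8 residual degrees of freedom. Calls required p under 0.05 after Benjamini-Hochberg adjustment across the 13858 genes. The fit was tested on simulated data. Differences are AS minus WT in each sex and over both, male minus female in each genotype and over both, and the interaction (male minus female genotype difference).

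Promoters are from RefSeq (GRCm38.p6), where 6 of 6 beta-thymosin genes matched by symbol. Windows of 100 bases were matched exactly. Named genes are the members, other measured beta-thymosins, the 5 genes with the highest Pearson r per member, tested genes within 500 kb (1 near Tmsb15b2 is not reported here), and the 3 genes with the smallest p per actin list. The members and lists were chosen with earlier results of these data known. The p-values set each difference against the spread between these samples and take the mice as independent. The labels do not say whether mice came from separate litters or cages, so that independence could not be checked.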

Additional observations from a re-analysis of the deposited data

How the results depend on the processing

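No genotype call was made for Tmsb4x or Tmsb10 under any alternative run. The Tmsb15b2 difference was not tested, and its direction is fixed by the choice of the gene. With values read as base 2 it was 0.47 in females and 0.41 over both sexes. No paired analysis was possible because the labels give no replicate numbers that tie mice of different groups together.

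Several differences changed sign, none of them past the threshold, and the cause was not tested. With library quality weights, AS minus WT was 0.012 for Tmsb10 in females and -0.0028 for Tmsb4x in males, and male minus female in AS was 0.018 for Tmsb15b2. After a further quantile normalization, Tmsb4x was at -0.012 for AS minus WT in males and at 0.0071 for male minus female in AS. With the mean of the choroid plexus markers as covariate, male minus female over both genotypes was -0.022 for Tmsb15b2. Without the 4 libraries with the most choroid plexus transcript, which leaves 1 WT female assumed to vary like the other groups, Tmsb4x was at -0.0083 for AS minus WT in males. There Tmsb10 was at -0.43 for AS minus WT in females and -0.36 over both sexes, against -0.03 and -0.20 with all libraries. It had an interaction of 0.14 against -0.34, and its male minus female difference was -0.0039 over both genotypes, -0.073 in WT against 0.27, and 0.065 in AS.

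The number of genes called also moved. Without those 4 libraries it was 5 for AS minus WT in females, 1 in males, 2 over both sexes and 2 for the interaction, and for male minus female 12 over both genotypes and 7 in WT. With a mean abundance of at least 5, male minus female gave 3 over both genotypes, 2 in WT and 3 in AS. With an added constant of 0.1 it gave 2 in AS, and with only the groups compared it gave 3 in AS.

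When each library was left out in turn, AS minus WT ran from -0.24 (without WT female replicate 1) to 0.14 (without WT female replicate 3) for Tmsb10 in females. For Tmsb4x it ran from -0.025 to 0.12 in males and from -0.058 to 0.015 over both sexes. Male minus female ran for Tmsb15b2 from -0.040 to 0.076 over both genotypes, from -0.023 to 0.204 in WT and from -0.18 to 0.027 in AS. In AS it ran from -0.053 to 0.078 for Tmsb4x and from -0.20 to 0.016 for Tmsb10. Genes called were 0 to 1 for AS minus WT in females, 0 to 1 in males, 0 to 2 over both sexes and 0 to 1 for the interaction, and the counts above 0 came when replicate 1 or 3 of the WT females, replicate 1 of the AS females or replicate 2 of the WT males was left out. For male minus female they were 4 to 8 over both genotypes, 4 to 8 in WT and 2 to 8 in AS, with the 8 in each case without WT female replicate 1, and in AS 2 to 3 without AS female replicate 3 or any one of the AS males. Without counts, what the depth limits cannot be given.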
